A study of Mus musculus with 32 samples.

Results

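The 10 genes described here encode tight junction proteins of the mouse colon: the claudins Cldn1, Cldn2, Cldn3, Cldn4, Cldn7, Cldn8, Cldn12 and Cldn15, occludin (Ocln), and the scaffold protein ZO-1 (Tjp1). They were taken by their symbol in the array's annotation, each gene being represented by its probe set with the highest mean signal over 32 arrays. All 10 had such a probe set, among 18193 genes measured in this way. RNA of the distal colon was hybridised to Affymetrix expression arrays in 4 groups. Treated KO (10 arrays) were Myd88 knockout mice given azoxymethane (AOM, a colon carcinogen) by intraperitoneal injection at 10 mg/kg at an age of 6 to 8 weeks, followed 1 week later by 2% the epithelium-damaging polymer dextran sodium sulfate (DSS) in the drinking water for 3 days. Treated WT (10 arrays) were wild-type mice given the same regimen. Untreated KO (6 arrays) and untreated WT (6 arrays) were mice of the same genotypes without it. Myd88 is the adaptor that carries signals of the IL-1 receptor family and of most Toll-like receptors. The knockout was carried on the C57 BL6NCr background of the wild type, and its deleted part is not named in the labels, so the Myd88 probe set may lie outside it. For untreated mice no age, housing or protocol is stated, so the regimen cannot be told apart from other differences in handling.

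Tight junctions close the gap between neighbouring epithelial cells near the lumen and set which ions and molecules pass between them. Claudins form the strands: claudin-2 and claudin-15 line pores for small cations and water and are best known from the crypts, while claudin-1, claudin-3, claudin-4 and claudin-8 are known mainly as sealing members. ZO-1 ties the strands to the actin cytoskeleton.

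Values are log2 signals after quantile normalization, and a difference of 1 is a 2-fold change. Levels are compared between groups for a gene, not between genes. A gene was called at an adjusted p under 0.05 in limma's moderated test over all 18193 genes. The Myd88 signal, from 1 probe set, averaged 8.00 ± 0.31 in treated KO and 8.46 ± 0.12 in treated WT (SD, n = 10 each), and 7.67 ± 0.11 in untreated KO and 8.40 ± 0.11 in untreated WT (SD, n = 6 each). Within groups, pairs of arrays had r of 0.935 to 0.985 over all genes. The mean of 10 epithelial marker genes such as Epcam was 12.34 ± 0.14 in treated KO, 12.11 ± 0.19 in treated WT, 12.06 ± 0.06 in untreated KO and 12.07 ± 0.04 in untreated WT. The tissue was whole distal colon, in which fewer cells of a type and less RNA per cell cannot be told apart.

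The promoters of the members that fell in treated KO (Cldn2 and Cldn15) and of the member with the largest rise in treated KO against treated WT (Cldn4) are shown as the 250 bases before the annotated start, from RefSeq on GRCm38.p6. Of the 10 members, 9 had a promoter entry, in 13 windows. Capitals mark matches, on either strand, to the CDX motif TTTAT, the AP-1 motif TGANTCA, the STAT motif TTCNNNGAA, the GATA motif AGATAA, the TCF/LEF motif CTTTGA and the TATA box TATAAA. The windows were chrX:139800558-139800807 (plus strand) for Cldn2, chr5:136967619-136967868 (plus strand) for Cldn15 and chr5:134946935-134947184 (minus strand) for Cldn4.
Cldn2: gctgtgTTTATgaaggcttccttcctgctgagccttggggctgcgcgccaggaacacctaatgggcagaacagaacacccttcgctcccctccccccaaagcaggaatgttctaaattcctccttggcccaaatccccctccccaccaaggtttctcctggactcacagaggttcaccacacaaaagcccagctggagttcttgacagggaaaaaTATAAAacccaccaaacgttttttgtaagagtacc
Cldn15: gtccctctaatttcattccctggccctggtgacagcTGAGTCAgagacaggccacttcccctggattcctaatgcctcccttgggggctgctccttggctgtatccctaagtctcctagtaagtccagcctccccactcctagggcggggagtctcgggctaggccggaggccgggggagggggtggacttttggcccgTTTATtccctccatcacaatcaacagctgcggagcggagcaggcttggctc
Cldn4: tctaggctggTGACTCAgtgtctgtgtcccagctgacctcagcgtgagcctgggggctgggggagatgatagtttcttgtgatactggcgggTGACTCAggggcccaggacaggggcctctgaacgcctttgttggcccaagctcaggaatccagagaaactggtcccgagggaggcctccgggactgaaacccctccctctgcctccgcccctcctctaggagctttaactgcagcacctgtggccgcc
The Cldn2 window held 2 CDX matches, of which the one on the reverse strand, 34 bases before the start, overlapped a TATA box match. Cldn15 held 1 CDX match, 51 bases before the start, and 1 AP-1 match. In Cldn4 there were 2 AP-1 matches, at 240 and 158 bases before the start. Among the other members, Tjp1 held a CDX match, and 1 window of Cldn7 and 2 overlapping windows of Cldn12 held a STAT match. Of 32851 promoter windows of this length, 37.3% held a CDX match, 6.75% an AP-1 match, 7.02% a STAT match, 12.4% a TATA box, 13.8% a TCF/LEF match and 9.99% a GATA match. These matches describe letters and not binding. Cldn3 and Cldn4 are neighbours on chromosome 5 with 0 coding genes between them.

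Cldn2, the pore-forming claudin, had the widest range of group means among the members. Its signal ran from 3.32 (the floor of the deposited values, in repeat 10) through a median of 5.41 to 9.82 in treated KO. In treated WT it ran from 6.14 through 7.99 to 9.51, in untreated KO from 9.71 through 10.01 to 10.18, and in untreated WT from 9.77 through 9.99 to 10.21. Both untreated groups were tightly grouped, while the treated arrays spread over several log2 units. All treated KO arrays except repeat 9 lay below every untreated KO array, and all 10 treated WT arrays lay below every untreated WT array.

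In KO mice, Cldn2 was lower in treated than in untreated arrays by 4.11 ± 0.63 on the log2 scale (SE, 17.3-fold, limma adjusted p = 6.28e-05). Since 1 treated KO array was at the floor, the fall is understated there. In WT mice the difference was -1.93 ± 0.63 (3.81-fold lower), which did not pass in the fit of all groups (limma adjusted p = 0.120). With the WT arrays fitted alone it passed at the same size (adjusted p = 0.0263), as it did with array weights (-1.92, adjusted p = 0.0097) and without treated KO repeat 9 (adjusted p = 0.0333). Between treated KO and treated WT, Cldn2 was lower by 2.16 ± 0.55 (4.47-fold, adjusted p = 0.00892), with 7 of 10 treated KO arrays below every treated WT array. That call ended with the 2 treated groups fitted alone (adjusted p = 0.0579) and with the epithelial marker mean as a covariate (-1.18, adjusted p = 0.407). The difference between the responses was -2.18 ± 0.89 (adjusted p = 0.328), so the responses were not shown to differ. Untreated KO and untreated WT differed by 0.02, with a 95% interval from -1.43 to 1.47. The fit of all groups uses 1 spread pooled over the 4 groups. The SD of Cldn2 was 1.89 in treated KO and 1.12 in treated WT, against 0.16 in untreated KO and 0.15 in untreated WT. The interval is therefore wider than the untreated arrays alone would give, and the WT test in that fit carries the same pooled spread.

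A second Cldn2 probe set gave -2.79 ± 0.43 for treated KO against untreated KO and -1.39 ± 0.37 for treated KO against treated WT, both called over 34945 probe sets (adjusted p = 6.96e-05 and 0.0142), and -1.20 ± 0.43 in WT mice (adjusted p = 0.183). It thus followed the first probe set in direction at a smaller size.

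**Figure D1:**
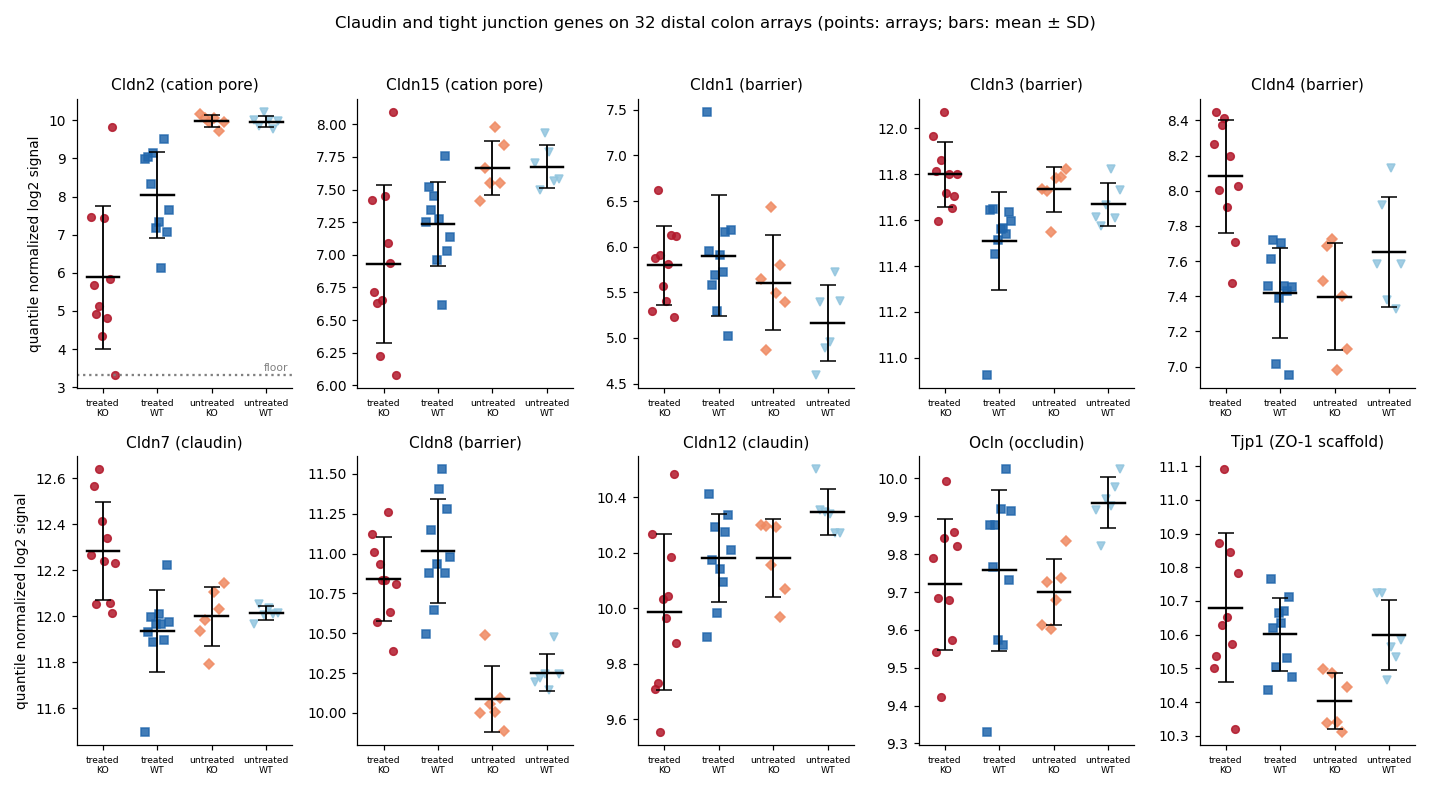
Quantile normalized log2 signal of each member (y axis) by group (x axis), with a point for each array and bars for the mean ± SD (n = 10 treated, n = 6 untreated). Cldn2 averaged 5.88 in treated KO and 8.04 in treated WT, against 9.99 in untreated KO and 9.97 in untreated WT; the y axes differ between genes and do not start at 0.

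Cldn15, the other cation pore claudin, ran from 6.08 through a median of 6.83 to 8.09 in treated KO and from 7.41 through 7.61 to 7.98 in untreated KO, and 7 of 10 treated arrays lay below every untreated one. It fell by 0.74 ± 0.21 in KO mice (adjusted p = 0.0115), a call that ended with the KO arrays fitted alone (adjusted p = 0.0747) and with the epithelial covariate (-0.48, adjusted p = 0.251). In WT mice its mean was 7.23 ± 0.32 in treated and 7.68 ± 0.16 in untreated arrays, a difference of -0.44 ± 0.21 that did not pass (adjusted p = 0.303). Treated KO minus treated WT was -0.30 ± 0.18 (adjusted p = 0.291), which passed without treated KO repeat 9 (-0.43, adjusted p = 0.0497).

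The 2 pore claudins varied together from array to array. With group means removed, Cldn2 and Cldn15 correlated at Pearson r = 0.886 and a Spearman rank correlation of 0.791 over 32 arrays (permutation p = 1e-05, the smallest 100000 resamples can give, and 3e-05; adjusted p = 0.00045 and 9e-04 over the 45 pairs of members). Pearson r was 0.784 without the 2 arrays farthest from the median. Within groups it was 0.917 in treated KO, 0.916 in treated WT, 0.0237 in untreated KO and 0.901 in untreated WT. Treated KO repeat 9 was the highest array of its group for both genes, at 9.82 for Cldn2 and 8.09 for Cldn15.

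Markers of several tissue parts moved with Cldn2. The mean of 10 crypt base and stem cell genes such as Lgr5 and Ascl2 was 6.02 ± 0.36 in treated KO, 6.19 ± 0.34 in treated WT, 7.03 ± 0.06 in untreated KO and 7.10 ± 0.03 in untreated WT. Of these 10 genes, 8 fell in KO mice, where 10% of all genes fell, and 5 in WT mice, where 1.22% did. Ascl2 was at the floor on 7 treated KO and 3 treated WT arrays. With group means removed, that mean correlated with Cldn2 at r = 0.732 and a Spearman rank correlation of 0.611 (permutation p = 0.00051 and 0.00292, adjusted p = 0.0034 and 0.0195 over 40 relations that were chosen after the data were seen). Without the 2 farthest arrays r was 0.520. For Cldn15 the relation with the crypt mean was weaker, at r = 0.526 and a Spearman rank correlation of 0.306 (adjusted permutation p = 0.035 and 0.237), at r = 0.167 without the 2 farthest arrays and at -0.804 within untreated KO. The crypt mean was 6.89 on treated KO repeat 9, its highest value in that group. The mean of 9 leukocyte genes had its lowest treated KO value, 5.72, on the same array, and within treated KO it correlated with Cldn2 at r = -0.862, against 0.0995 within treated WT. That array also had the highest mean of 9 skeletal muscle genes in its group, 9.31, with a group median of 6.19.

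Markers of position along the colon and of the enteric nervous system moved as well. The mean of 7 genes of distal colon position such as Hoxd13 was 8.46 ± 0.30 in treated KO, 8.58 ± 0.19 in treated WT, 8.85 ± 0.10 in untreated KO and 8.87 ± 0.13 in untreated WT. Of the 7, 3 fell in KO mice, where 10% of all genes fell. The mean of 6 enteric glia and neuron genes was 6.17 ± 0.31 in treated KO, 5.98 ± 0.16 in treated WT, 5.73 ± 0.09 in untreated KO and 5.82 ± 0.07 in untreated WT, and 3 of the 6 rose in KO mice, where 8.69% of all genes rose. The part of crypt, leukocyte, muscle, position and glia markers in the Cldn2 differences was not tested.

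The genes most like Cldn2 in their deviations from group means over 32 arrays were Sypl (r = 0.918), Reg4 (0.91), Otc (0.909), Nxpe2 (0.908) and Stk26 (0.896). Those most like Cldn15 were Stk26 (0.911), Reg4 (0.901), Ahcy (0.895), Cldn2 (0.886) and Ugt2b35 (0.871). Stk26 and Reg4 were thus in both lists. These are descriptions of 32 arrays that share their preparation, with no test.

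Over the 10 members, 6 were called between treated KO and untreated KO, against 18.7% of all genes: Cldn4, Cldn7, Cldn8 and Tjp1 rose (8.69% of all genes did) and Cldn2 and Cldn15 fell (10% did). Their median difference was 0.13, against 0 over all genes. The treated and untreated KO arrays overlapped in all 10 members, while 2.04% of all genes had no overlap. In WT mice only Cldn8 was called, a rise, against 1.82% of all genes (0.605% higher and 1.22% lower). Cldn2 and Cldn8 were the 2 members whose treated and untreated WT arrays did not overlap, against 1.42% of all genes. The member median there was -0.16, against 0. Between treated KO and treated WT 4 members were called, against 12.8% of all genes: Cldn3, Cldn4 and Cldn7 were higher (6.24% of all genes were) and Cldn2 was lower (6.57% were). No member was without overlap, against 0.231% of all genes. This comparison and the KO response share the treated KO arrays. Between the untreated genotypes limma called 0 members, against 0.115% of all genes, and 0 were without overlap, against 0.951%. For the difference between the responses it called 0, against 0.055%. At an unadjusted p under 0.05 the test gave 2 members between the untreated genotypes and 4 for the difference between the responses. The share of all genes at that unadjusted threshold was not taken, so these counts cannot be weighed.

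**Figure D2:**
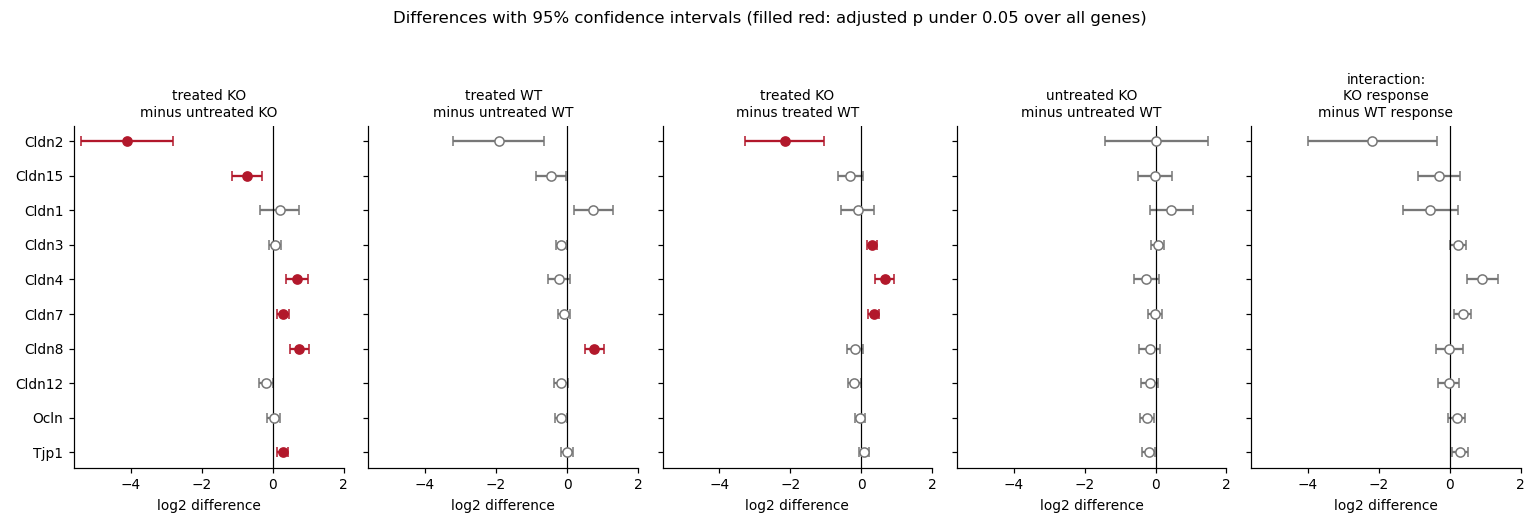
Log2 difference (x axis) of each member (y axis) in the 5 comparisons, with 95% confidence intervals. Filled red points were called over all genes: 6 members in KO mice, 1 in WT mice, 4 between the treated genotypes and 0 in the others; Cldn2 is the farthest from 0 in the first 3 panels.

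Cldn8, a sealing claudin induced by aldosterone in the distal colon of rats, was the member called in both genotypes. It ran from 10.39 through a median of 10.83 to 11.26 in treated KO and from 9.89 through 10.03 to 10.49 in untreated KO, and all treated arrays but 1 lay above every untreated one. In WT mice it ran from 10.50 through 10.96 to 11.53 in treated and from 10.14 through 10.23 to 10.48 in untreated arrays, without overlap. It rose by 0.75 ± 0.13 in KO mice (adjusted p = 0.000227) and by 0.76 ± 0.13 in WT mice (adjusted p = 0.00229). The responses differed by -0.01, with a 95% interval from -0.39 to 0.37. Treated KO minus treated WT was -0.18 ± 0.11 (adjusted p = 0.343). With the epithelial covariate the KO call ended (0.38, adjusted p = 0.0525) and the treated genotypes were called (-0.48, adjusted p = 0.0179). With group means removed, Cldn8 correlated with the epithelial mean at r = 0.697 and a Spearman rank correlation of 0.679 (adjusted permutation p = 0.00096 and 0.002). Within groups r was 0.615 in treated KO, 0.865 in treated WT, 0.0713 in untreated KO and -0.049 in untreated WT. With the crypt mean r was -0.59 and the Spearman rank correlation -0.488 (adjusted permutation p = 0.017 and 0.0662).

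The genes most like Cldn8 were Npas2 (r = 0.755), Mboat1 (0.745), Arpin (0.733), Fkbp5 (0.733) and Strip2 (0.732) over 32 arrays.

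Cldn4, a sealing claudin, had its highest group mean in treated KO. It ran from 7.47 through a median of 8.11 to 8.45 in treated KO and from 6.95 through 7.45 to 7.72 in treated WT. In untreated KO it ran from 6.98 through 7.44 to 7.73, and in untreated WT from 7.33 through 7.58 to 8.13. Of the 10 treated KO arrays 8 lay above every treated WT array, and 8 above every untreated KO array.

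Against untreated KO it rose by 0.68 ± 0.15 (1.61-fold, adjusted p = 0.00193), and against treated WT it was higher by 0.66 ± 0.13 (1.58-fold, adjusted p = 0.0014). In WT mice the difference was -0.24 ± 0.15 (adjusted p = 0.501). The responses differed by 0.92 ± 0.21, which missed the threshold (adjusted p = 0.0885). It passed with median centring (0.99, adjusted p = 0.0479), array weights (0.91, adjusted p = 0.0317) and the covariate for the 3' to 5' signal of control genes (0.93, adjusted p = 0.0482), and without treated KO repeat 8 or 9 (adjusted p = 0.0458 and 0.0313). Over its alternatives the adjusted p ran from 0.0313 to 0.432. With the epithelial covariate both calls of Cldn4 ended, at 0.53 in each (adjusted p = 0.0813 and 0.0978).

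Cldn3 and Cldn7, a sealing claudin and one whose loss in mice leads to intestinal inflammation, differed less. Cldn7 ran from 12.02 through a median of 12.25 to 12.64 in treated KO and from 11.50 through 11.97 to 12.22 in treated WT, against 11.79 through 12.01 to 12.15 in untreated KO and 11.97 through 12.01 to 12.06 in untreated WT. It was higher in treated KO than in treated WT by 0.35 ± 0.07 (adjusted p = 0.00271), with 7 of 10 treated KO arrays above every treated WT array. Its rise against untreated KO was 0.28 ± 0.09 (adjusted p = 0.0198). That call ended without untreated KO repeat 3 (0.24, adjusted p = 0.062), with median centring (0.23, adjusted p = 0.230), with the values as deposited (0.15, adjusted p = 0.390) and with the KO arrays alone (adjusted p = 0.0697).

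Cldn3 averaged 11.80 ± 0.14 in treated KO and 11.51 ± 0.21 in treated WT (SD, n = 10 each), and 11.73 ± 0.10 in untreated KO and 11.67 ± 0.09 in untreated WT (SD, n = 6 each). It was higher in treated KO than in treated WT by 0.29 ± 0.07 (adjusted p = 0.00627), with 9 of 10 arrays above every treated WT array. Of its 4 probe sets 3 were called in this comparison, and the other was at 0.21 ± 0.07 (adjusted p = 0.0575). The brightest is of an Affymetrix probe set type that may also match related transcripts. Against untreated mice it was not called, at 0.06 ± 0.08 in KO and -0.16 ± 0.08 in WT mice.

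Both genes varied with epithelial markers over all arrays, as Cldn8 did. With group means removed, the mean of the 10 epithelial genes correlated with Cldn3 at r = 0.87 and a Spearman rank correlation of 0.795 and with Cldn7 at r = 0.857 and a Spearman rank correlation of 0.818 (permutation p = 1e-05 for each, adjusted p = 0.000133 over the same 40 relations), and r was 0.721 and 0.82 without the 2 farthest arrays. Of these 10 epithelial genes 6 rose in treated against untreated KO, where 8.69% of all genes rose. Between treated KO and treated WT 4 were called higher, against 6.24% of all genes. All 10 were higher in both comparisons, called or not, against 48.58% and 49.05% of all genes. With the epithelial mean as a covariate the treated genotypes differed by 0.06 in Cldn3 (adjusted p = 0.634) and by 0.10 in Cldn7 (adjusted p = 0.363). Treated against untreated KO differed by -0.21 in Cldn3 (adjusted p = 0.018) and -0.01 in Cldn7. In WT mice Cldn3 was called lower with it (-0.20, adjusted p = 0.00947). Within untreated WT, Cldn7 and the epithelial mean correlated at r = -0.407, against 0.866 within treated KO, 0.937 within treated WT and 0.89 within untreated KO. The mean of 10 surface colonocyte genes such as Krt20 correlated at r = 0.794 with Cldn3 and 0.824 with Cldn7. The Spearman rank correlations were 0.573 and 0.761, and r was 0.598 and 0.725 without the 2 farthest arrays. The surface colonocyte mean was 11.78 ± 0.19 in treated KO, 11.46 ± 0.20 in treated WT, 11.66 ± 0.13 in untreated KO and 11.70 ± 0.10 in untreated WT. Of its 10 genes 5 were called higher and 1 lower in treated KO than in treated WT, against 6.24% and 6.57% of all genes. The epithelial covariate differs between the groups and so can take up part of a difference.

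**Figure D3:**
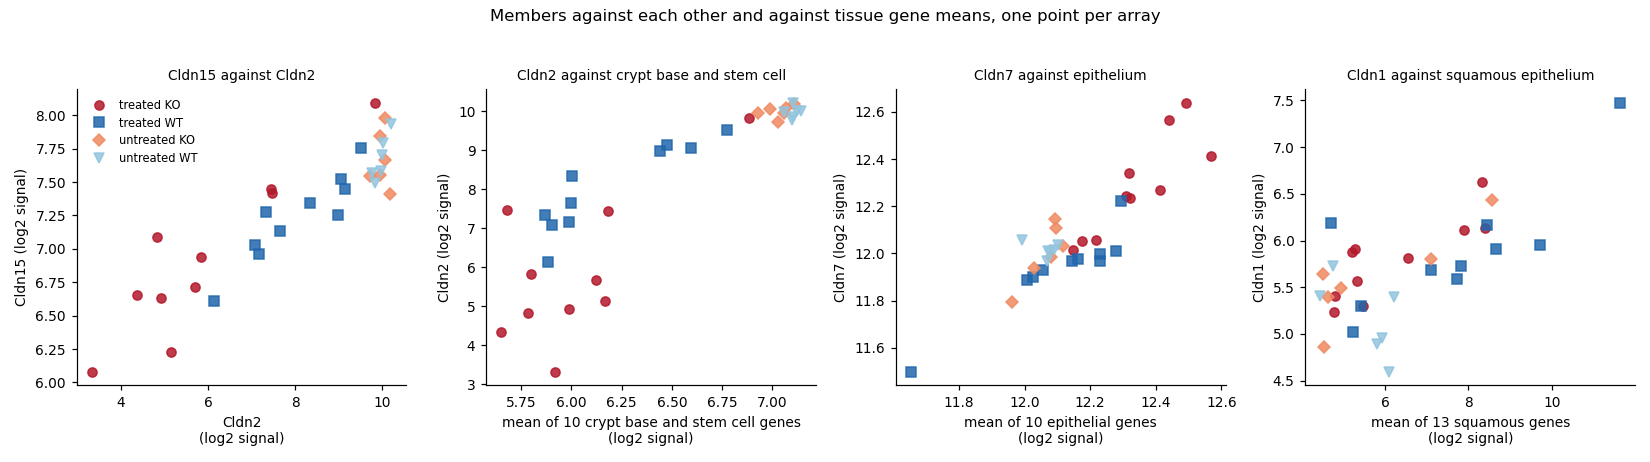
Log2 signals of 4 pairs, with a point for each array: Cldn15 against Cldn2, Cldn2 against the crypt base and stem cell mean, Cldn7 against the epithelial mean, and Cldn1 against the squamous epithelium mean. Treated KO repeat 9 lies with the untreated arrays in the first 2 panels, and treated WT repeat 1 is the lone point at 11.64 of the squamous mean in the last.

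Tjp1, which encodes ZO-1, ran from 10.32 through a median of 10.64 to 11.09 in treated KO and from 10.31 through 10.39 to 10.50 in untreated KO, with 9 of 10 treated arrays above every untreated one. It rose by 0.28 ± 0.08 (adjusted p = 0.0118), a call that ended with the KO arrays alone (adjusted p = 0.0714) and with the epithelial covariate (0.18, adjusted p = 0.259). In WT mice its means were 10.60 ± 0.11 in treated and 10.60 ± 0.10 in untreated arrays. Untreated KO minus untreated WT was -0.20 ± 0.09 (adjusted p = 0.651), and the responses differed by 0.28 ± 0.11 (adjusted p = 0.315). Over arrays, Tjp1 and Cldn2 ran opposite ways (r = -0.643, Spearman rank correlation -0.518, adjusted permutation p = 0.0268 and 0.067). Without the 2 farthest arrays r was -0.521. Within groups r was -0.779 in treated KO, -0.418 in treated WT, 0.451 in untreated KO and -0.413 in untreated WT.

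Ocln, whose product occludin spans the membrane in the strands, was not called in any comparison. It averaged 9.72 ± 0.17 in treated KO and 9.76 ± 0.21 in treated WT (SD, n = 10 each), and 9.70 ± 0.09 in untreated KO and 9.94 ± 0.07 in untreated WT (SD, n = 6 each). Untreated KO minus untreated WT was -0.24 ± 0.09 (unadjusted p = 0.0167 in limma, adjusted p = 0.579), with 5 of 6 KO arrays below every WT array. Treated minus untreated was 0.02 ± 0.08 in KO (95% interval -0.15 to 0.19) and -0.18 ± 0.08 in WT mice (adjusted p = 0.306). A second Ocln probe set was not called either and gave other sizes. It was at -0.08 ± 0.13 for untreated KO minus untreated WT. Treated minus untreated was -0.23 ± 0.12 in KO and -0.11 ± 0.12 in WT mice with that probe set.

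Cldn12, a claudin known for vitamin D-dependent calcium uptake in mice, was not called either. It averaged 9.98 ± 0.28 in treated KO and 10.18 ± 0.16 in treated WT (SD, n = 10 each), and 10.18 ± 0.14 in untreated KO and 10.35 ± 0.08 in untreated WT (SD, n = 6 each). Treated minus untreated was -0.20 ± 0.10 in KO (adjusted p = 0.184) and -0.17 ± 0.10 in WT mice (adjusted p = 0.462). Without treated KO repeat 9, treated KO was called lower than untreated KO (-0.25, adjusted p = 0.0437) and than treated WT (-0.25, adjusted p = 0.0261). A second Cldn12 probe set was at -0.21 ± 0.12 in KO and -0.19 ± 0.12 in WT mice with all arrays. Between treated KO and treated WT it was at -0.04 ± 0.10 (limma adjusted p = 0.894 over 34945 probe sets), against -0.20 ± 0.09 for the first probe set.

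Cldn1, a sealing claudin that is also abundant in squamous epithelia such as skin, averaged 5.80 ± 0.43 in treated KO and 5.90 ± 0.66 in treated WT (SD, n = 10 each), and 5.61 ± 0.52 in untreated KO and 5.16 ± 0.42 in untreated WT (SD, n = 6 each). The WT difference was 0.74 ± 0.27 and did not pass (adjusted p = 0.166). It passed with array weights (0.67, adjusted p = 0.0366) and with the epithelial covariate (0.83, adjusted p = 0.0364).

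Squamous markers moved with Cldn1. The mean of 13 squamous epithelium genes such as Krt14 was 6.20 ± 1.47 in treated KO, 7.64 ± 2.15 in treated WT, 5.72 ± 1.71 in untreated KO and 5.54 ± 0.75 in untreated WT, and reached 11.64 on treated WT repeat 1, where Cldn1 was at 7.47. All 13 were higher in treated than in untreated WT mice, called or not, against 47.85% of all genes. Of the 13, 1 was called, a rise, against 0.605% of all genes. With group means removed, Cldn1 correlated with this mean at r = 0.678 and a Spearman rank correlation of 0.558 (permutation p = 0.00017 and 0.00175, adjusted p = 0.0017 and 0.0175 over the 10 members), and at r = 0.496 without the 2 farthest arrays, treated WT repeat 1 and untreated KO repeat 3. Cldn3 and Cldn7 ran the other way at r = -0.555 and -0.583 (adjusted permutation p = 0.0129 and 0.0078), with r of -0.264 and -0.392 without those arrays, and their rank correlations did not pass (adjusted p = 0.312 and 0.212). The part of squamous tissue in the Cldn1 values was not tested.

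**Figure D4:**
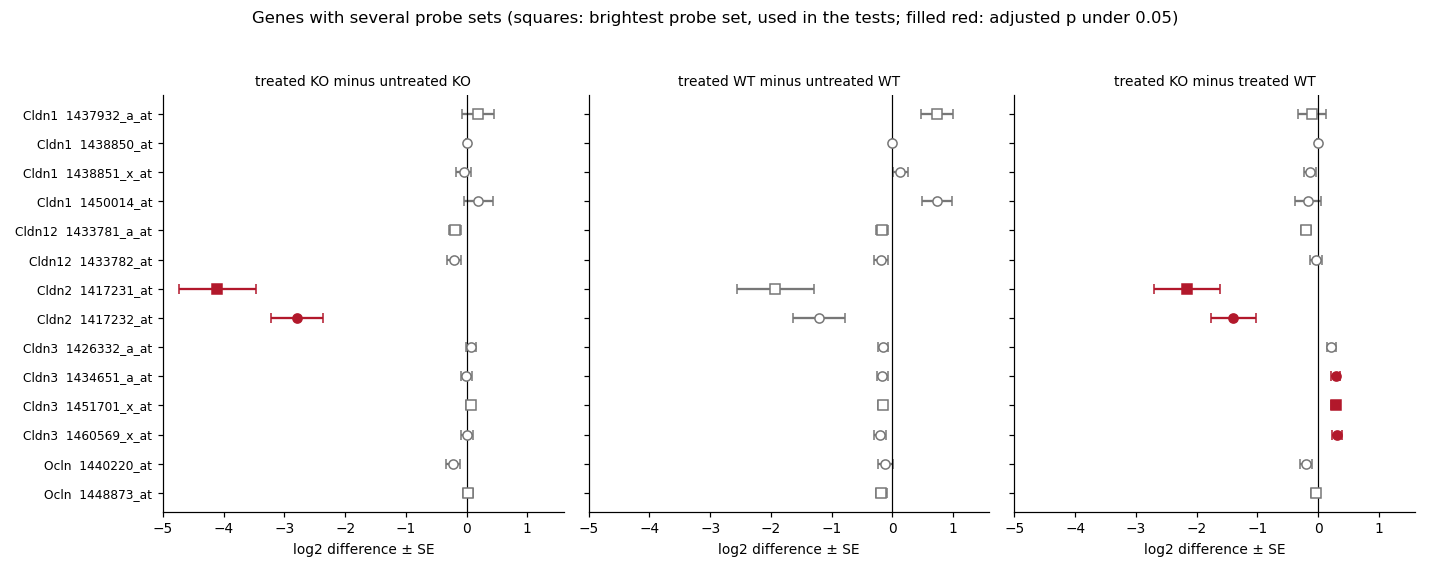
Log2 difference ± SE (x axis) of every probe set of the members with several probe sets (y axis), in 3 comparisons. Squares are the brightest probe sets, which stand for their gene; both Cldn2 probe sets lie left of 0 in all 3 panels, and 3 of 4 Cldn3 probe sets were called in the last.

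Few of the remaining claudins were called, and several had signals at or near the floor of 3.32. Cldn9 was at the floor on 9 treated WT and 6 untreated WT arrays, Cldn11 on 9 treated KO and Cldn19 on 8 treated KO arrays. For such genes a missing call says little about change. Of all genes, 8.69% rose and 10% fell in KO mice, 6.24% were higher and 6.57% lower in treated KO than in treated WT, and 0.605% rose and 1.22% fell in WT mice, and the counts of the lists that follow stand against these shares. Of 13 other claudins with a probe set, 1 rose in treated against untreated KO: Cldn23 (0.47 ± 0.13, adjusted p = 0.0102). The level of Cldn23 was 8.84 ± 0.26 in treated and 8.36 ± 0.23 in untreated KO, against 8.72 ± 0.28 in treated and 8.72 ± 0.23 in untreated WT. Its WT difference was 0.00 ± 0.13. Untreated KO minus untreated WT was -0.36 ± 0.15 and treated KO minus treated WT 0.12 ± 0.11 (limma adjusted p = 0.605 and 0.570). None of the 13 was called in the other comparisons, and Cldn5, the brightest one not called in KO mice, was at 0.26 ± 0.13 in KO mice (adjusted p = 0.184).

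Membrane proteins of the junction rose in 4 of 10 cases in treated against untreated KO, against 8.69% of all genes, and fell in 0. Their median difference was 0.14, against 0 over all genes. Ildr2 rose by 0.91 ± 0.22, Ildr1 by 0.84 ± 0.14 and Igsf5 by 0.69 ± 0.14 (adjusted p = 0.00369, 0.000186 and 0.000948). Ildr1 and Ildr2 are angulins, which sit where 3 cells meet, and Igsf5 is a junctional adhesion molecule. The same 3 genes were higher in treated KO than in treated WT, by 0.61 ± 0.19, 0.73 ± 0.12 and 0.50 ± 0.12 for Ildr2, Ildr1 and Igsf5. Ildr1 averaged 8.97 ± 0.36 in treated KO and 8.24 ± 0.32 in treated WT, against 8.13 ± 0.12 in untreated KO and 7.98 ± 0.14 in untreated WT. In WT mice 0 of the 10 were called.

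Among 12 scaffold genes 1 rose in KO mice, a share near the 8.69% of all genes. This was Cgnl1 (0.58 ± 0.10, adjusted p = 0.000177), which encodes paracingulin. Between treated KO and treated WT, Cgnl1 (0.35 ± 0.09) and Mpp5, the polarity scaffold PALS1 (0.26 ± 0.08), were higher. Ybx3, a transcription factor that binds ZO-1, was lower (-0.44 ± 0.09, adjusted p = 0.00204).

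Of 9 polarity genes 1 rose and 2 fell in KO mice, against 8.69% and 10% of all genes, and their median difference was -0.08. Pard6b, a PAR6 subunit, rose by 1.17 ± 0.22 (2.25-fold, adjusted p = 0.000446). It averaged 7.93 ± 0.67 in treated KO and 7.03 ± 0.23 in treated WT, against 6.76 ± 0.32 in untreated KO and 7.19 ± 0.18 in untreated WT. Prkci, an atypical protein kinase C that binds PAR6, fell by 0.41 ± 0.07, and Amot, angiomotin, fell by 0.49 ± 0.13. The same 3 genes were called between treated KO and treated WT, at 0.90 ± 0.19, -0.34 ± 0.06 and -0.48 ± 0.11 for Pard6b, Prkci and Amot.

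Adherens junction genes rose in 4 of 9 cases in KO mice, against 8.69% of all genes, with a median difference of 0.20. Among them were Ctnnd1 (p120 catenin, 0.56 ± 0.12), Cdh17 (0.52 ± 0.11) and Ctnnb1 (beta-catenin, 0.31 ± 0.08), and Ctnnd1 and Cdh17 were also higher in treated KO than in treated WT (0.44 ± 0.10 and 0.45 ± 0.10). Among 8 tension and kinase genes 2 rose and 2 fell in KO mice, against 8.69% and 10% of all genes, with a median difference of 0.06. Rhoa, the GTPase that drives actomyosin contraction, rose by 0.45 ± 0.06 (adjusted p = 1.59e-05). Arhgef2, a guanine nucleotide exchange factor held at the junction, rose by 0.24 ± 0.08, while Prkca fell by 0.35 ± 0.08 and Rock1 by 0.16 ± 0.05. Between treated KO and treated WT, Src (0.55 ± 0.19) and Arhgef2 (0.34 ± 0.07) were higher, and the kinases Wnk1 (-0.30 ± 0.07) and Prkca (-0.25 ± 0.07) were lower. The myosin kinase gene Mylk, known to open the barrier, was at 0.08 ± 0.17 and not called.

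Among 14 transcription factors known to act on claudin genes, 1 rose and 2 fell in KO mice, a share near the 18.7% of all genes called there. Cdx2, an intestinal homeobox factor known from human cells to act on the CLDN2 promoter, rose by 0.75 ± 0.17 (adjusted p = 0.00249) where Cldn2 fell. It averaged 7.86 ± 0.35 in treated KO, 7.29 ± 0.33 in treated WT, 7.11 ± 0.43 in untreated KO and 7.15 ± 0.21 in untreated WT. Vdr, the vitamin D receptor, known in mice to act on Cldn2, fell by 0.72 ± 0.16 in KO and by 0.66 ± 0.16 in WT mice (adjusted p = 0.00192 and 0.0252), the 1 factor called in WT mice. Grhl2, an activator of Cldn4 in mice, fell by 0.66 ± 0.11 in KO mice, where Cldn4 rose. Cdx2 (0.57 ± 0.15) and the Wnt effector Tcf7l2 (0.40 ± 0.11) were higher in treated KO than in treated WT. The part of these factors in the differences of the members was not tested. Of 11 cytokine genes known to alter junctions 2 rose in KO mice, against 8.69% of all genes, Il18 by 0.42 ± 0.10 and Tgfb1 by 0.63 ± 0.20, named after their values were seen. In these 8 lists of other junction genes and regulators, 0 genes were called between the untreated genotypes or for the difference between the responses.

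**Figure D5:**
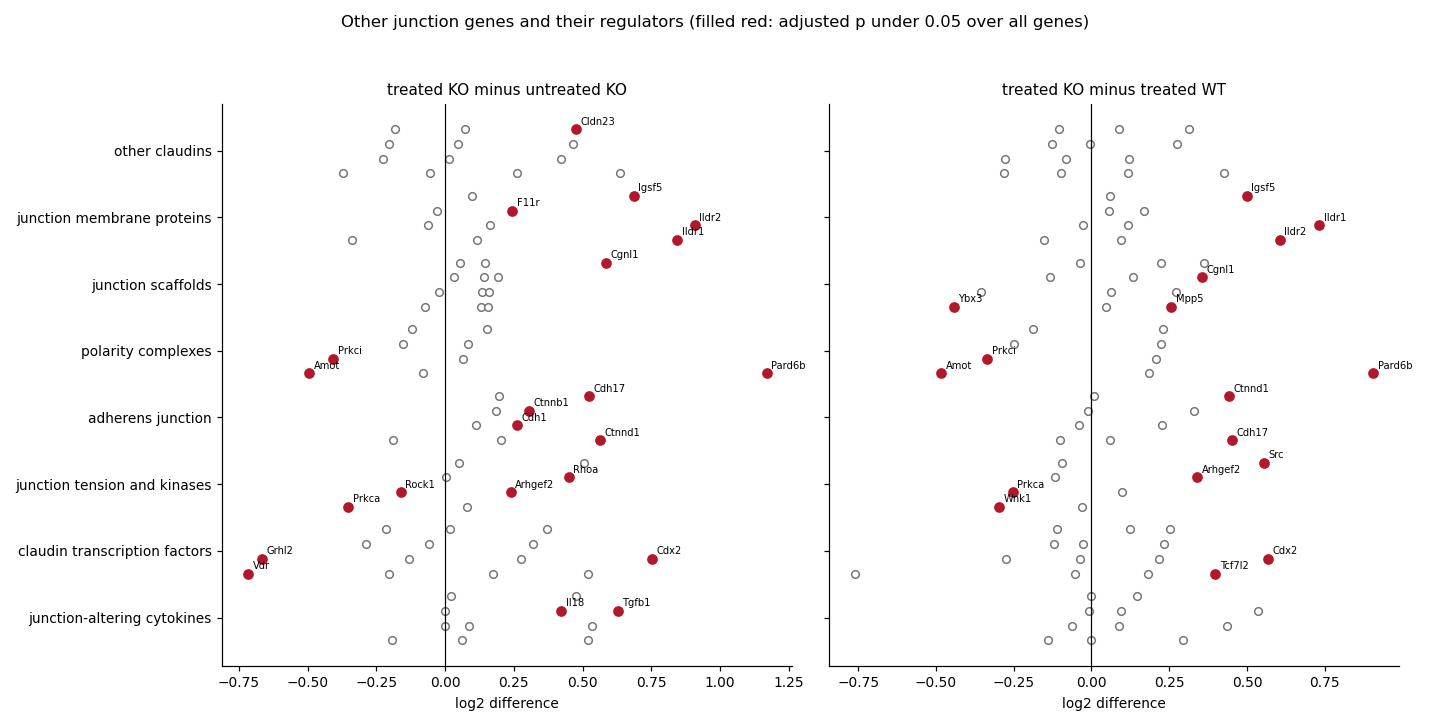
Log2 difference (x axis) of the genes of 8 other junction and regulator lists (y axis) for treated KO against untreated KO (left) and against treated WT (right). Filled red points with names were called over all genes; Pard6b lies farthest right in both panels, at 1.17 and 0.90.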

How the data were processed

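The authors deposited log2 signals for 45101 probe sets on each of 32 arrays. Per the labels, total RNA was amplified, and the summarisation software is not given in the sources used here. From their range and sums it was read that the arrays had been scaled to a common trimmed mean and that signals under 10 had been raised to 10, which held for 18.7% to 23.9% of probe sets. The deposited log2 values were quantile normalized. Symbols came from the platform annotation and RefSeq gene names (34945 probe sets with 1 symbol, 932 with several, 9224 with none, controls included), and the brightest probe set stood for each of 18193 genes. Group means were compared in a linear model of 4 groups (limma 3.58.1, R 4.3.3; 28 residual degrees of freedom), two-sided, with Benjamini-Hochberg adjustment over all genes at 0.05. Differences are given ± SE and levels ± SD. Precision is limited by the number of arrays, which the design calls biological repeats.

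All 10 members were named. Of each other junction list, up to 3 called genes in each direction and the brightest uncalled gene could be named, and the 5 genes most like the 3 members with the widest range of group means. Members and lists were chosen with earlier results of these data known. Correlations used deviations from group means, with 100000 permutations within groups. Alternatives changed the scaling, the gene filter, the probe set rule, the arrays used, array weights, the prior, the threshold and tissue covariates. The fit was tested on simulated data in which a gene had the same spread in every group. Spreads that differ between groups, as in Cldn2, were not covered. Repeat numbers did not pair the arrays. They did split each group by the signal of Xist, a transcript of female cells. It was 11.55 to 12.31 on treated repeats 1 to 5 and untreated repeats 1 to 3. On the later repeats of each group it was 4.53 to 5.88. With Xist as a covariate no member changed direction or side of the threshold. Males and females were not tested apart.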

Additional observations from a re-analysis of the deposited data

Results flagged for a closer look

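In 7 of 40 member and group combinations the highest or lowest array stood apart from the others by Dixon's criterion. Its rate of about 1 of 20 groups holds for independent normal values. The members share their arrays, so the count was not tested against that rate. Treated WT repeat 1, the array with the highest squamous marker mean, was high in Cldn1 (7.473, with the others between 5.026 and 6.185) and low in Cldn3 (10.93, others 11.45 to 11.65) and Cldn7 (11.5, others 11.89 to 12.22). Untreated KO repeat 3 was low in Cldn3 (11.55, others 11.73 to 11.82). Cldn8 was high in untreated KO repeat 2 (10.49, others 9.889 to 10.09) and in untreated WT repeat 5 (10.48, others 10.14 to 10.25). Cldn12 was high in untreated WT repeat 1 (10.5, others 10.27 to 10.35). The cause of these values was not tested.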

How the results depend on the processing

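Of 690 values of single members under other settings 639 kept their direction and side of the threshold, as did 1562 of 1600 with 1 array left out. The number of members called in KO mice was 6 and became 3 with the compared groups only, 2 with the epithelial covariate (Cldn2, and Cldn3 as a new call) and 3 at an adjusted p under 0.01. In WT mice it was 1 and became 2 with the compared groups only, 3 with array weights and 3 with the epithelial covariate. Between the treated genotypes it was 4 and became 3 with the compared groups only, without Cldn2, and 1 with the epithelial covariate, where all 4 calls ended and Cldn8 alone was called, and for the difference between the responses it was 0 and became 1 with median centring, array weights or the 3'/5' covariate. With 1 array left out the counts ran from 5 to 7 in KO mice, 1 to 2 in WT mice, 4 to 6 between the treated genotypes, 0 to 0 between the untreated ones and 0 to 1 for the responses. With the repeat number as a replicate block they were 6, 1, 4, 0 and 0 in that order, and no pairing was found, since same-numbered arrays correlated at a median r between -0.0585 and 0.0384. Values that turned sign were not called in the fit reported, except Cldn7 in KO mice. With the epithelial covariate the KO difference was -0.21 for Cldn3 (called there), -0.0090 for Cldn7 and -0.055 for Ocln, the WT difference was -0.013 for Tjp1, treated KO minus treated WT was 0.43 for Cldn1 and -0.0043 for Tjp1, and the responses differed by -0.011 for Cldn3. With median centring Tjp1 was at -0.026 in WT mice, Ocln at 0.079 between the treated and Cldn7 at 0.061 between the untreated genotypes, and the responses differed by 0.15 for Cldn8 and 0.12 for Cldn12. With the values as deposited Tjp1 was at -0.019 in WT mice, Cldn7 at 0.072 between the untreated genotypes, and the responses differed by 0.059 for Cldn8 and 0.020 for Cldn12. With the mean of a gene's probe sets Ocln was at -0.10 in KO mice, with array weights the responses differed by 0.031 for Cldn8, and with the 3'/5' covariate Tjp1 was at -0.050 in WT mice and Cldn15 at 0.13 between the untreated genotypes. With the squamous and skeletal muscle covariates Cldn7 was at 0.064 in WT mice and 0.0041 between the untreated genotypes, Cldn1 at 0.18 between the treated and Cldn2 at -0.089 between the untreated ones; without treated WT repeats 1 and 2 Cldn1 was at 0.099 between the treated ones. With 1 array left out the sign turned within these ranges: Cldn1 -0.20 to 0.070 between the treated genotypes, Cldn15 -0.074 to 0.039, Cldn2 -0.020 to 0.076 and Cldn7 -0.044 to 0.027 between the untreated ones, Ocln -0.0089 to 0.055 in KO mice, Tjp1 -0.025 to 0.027 in WT mice, and Cldn12 -0.085 to 0.018 and Cldn8 -0.071 to 0.067 for the responses. The cause of these changes was not tested. Signals at the floor, as in Cldn2 and Ascl2, limit the size of a fall.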
